A study of Mus musculus with 82 samples.

Results

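Respiratory complex I genes were taken as the protein-coding genes of chromosomes 1 to 19 whose symbols start with Ndufa, Ndufb, Ndufc, Ndufs, Ndufv or Ndufaf, and 47 of 20560 protein-coding genes met this rule. They comprised 39 genes counted as subunits and 8 Ndufaf assembly factors, on 17 chromosomes. The rule used no measured value. Of the 39, Ndufa4 is now placed in cytochrome c oxidase, Ndufa4l2 is its paralogue, and Ndufb4b and Ndufb4c are copies of Ndufb4. A further 2 genes with these symbols, Ndufa1 and Ndufb11, lie on chromosome X and were left out by the rule.

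Complex I, the NADH dehydrogenase of the mitochondrial inner membrane, passes electrons from NADH to ubiquinone and pumps protons. A matrix arm holds an NADH-oxidising part (N) and a quinone-reducing part (Q), and a membrane arm (P) holds the proton pumps. Core subunits carry the catalytic centres, accessory subunits surround them, and assembly factors help to build the complex without being part of it. The nuclear genes of the complex are expressed in nearly all cells.

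The study asked where Adnp, a zinc finger and homeodomain protein of the ChAHP complex with Chd4 and HP1, recruits HP1 in mouse embryonic stem cells. The series comprises 82 samples in 32 groups, of ChIP-seq with inputs, RNA-seq and ATAC-seq. All cells were of a hybrid 129-C57BL/6 background, grown in 2i medium with LIF. A list of 15026 Adnp peaks is tied to 3 replicates of cells labelled Adnp FlagAvi, which carried a FlagAvi tag on Adnp. A list of 2047 HP1γ peaks lacking the Adnp motif is tied to 3 replicates labelled Cbx3 FlagAvi, with the tag on HP1γ (the product of Cbx3), and to 3 labelled Cbx3 FlagAvi, Adnp KO. The treatment of all 9 is given as none, and tagged proteins were captured on streptavidin beads. Each list is pooled, so no value below has an error between replicates and no test over samples could be made. The HP1γ peaks are named after the Adnp knock-out, but whether a single peak was present in 1 genotype or in both cannot be read from the list. Peak positions hold no marker of cell type, so the label of embryonic stem cells could not be checked, and the number of reads behind a peak is unknown. Genes are not replicates, and neighbouring genes can share a peak. Intervals on shares of genes cover counting error only. HP1γ peaks with the Adnp motif are outside the second list, so a gene without a listed HP1γ peak may still have carried HP1γ. All positions are on mm10 (GRCm38). The RNA-seq and ATAC-seq were not analysed here, so nothing below concerns the expression of these genes.

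A RefSeq promoter (GRCm38.p6, from 250 bases before the transcription start to 50 from it onwards) was matched for 40 of the 47 genes. An Adnp peak overlapped 1 of the 40 promoters, that of Ndufa3, beside 216 of 16457 protein-coding promoters (1.31%). The peak, chr7:3616786-3617353, ended 20 bases before the transcription start used in the promoter table, and 231 of its bases lay in the promoter. These are shown because this is where the highest-scoring Adnp peak of any complex I gene meets a start (chr7:3617123-3617353, plus strand); capitals mark the Sp1 word GGGCGG.
Ndufa3: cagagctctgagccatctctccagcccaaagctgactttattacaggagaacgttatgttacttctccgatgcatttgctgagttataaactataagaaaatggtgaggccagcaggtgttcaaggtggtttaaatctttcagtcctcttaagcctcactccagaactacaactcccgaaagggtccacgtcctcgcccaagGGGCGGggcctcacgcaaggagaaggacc

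The stretch was 49.8% G or C with 7 CG steps. It held neither of the Adnp and CTCF-like words searched, CGCCCTCT and CGCCCCCT, on either strand, and the remaining bases of the peak were not available as sequence.

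The word AAGATGGC, which the zinc finger factor YY1 is known to bind, was found in 8 of 40 promoters (20%), against 532 of 16457 protein-coding promoters (3.23%), both strands searched. In all 8 it lay on the sense strand after the start, at positions 11 to 39 counted from 1 at the first transcribed base. Of all promoters, 225 (1.37%) held it on that strand and side. The windows of 30 bases below are printed to show that shared placement, with the word in capitals.
Ndufaf8 (chr11:120098933-120098962, plus strand, position 11): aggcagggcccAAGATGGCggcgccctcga
Ndufa3 (chr7:3617384-3617413, plus strand, position 23): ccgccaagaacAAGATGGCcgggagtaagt
Ndufc1 (chr3:51408915-51408944, minus strand, position 23): gcctgcggaacAAGATGGCgccgtccgtag
Ndufs7 (chr10:80249462-80249491, plus strand, position 25): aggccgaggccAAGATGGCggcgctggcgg
Ndufa9 (chr6:126849097-126849126, minus strand, position 30): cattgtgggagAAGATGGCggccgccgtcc
Ndufs6 (chr13:73328433-73328462, minus strand, position 34): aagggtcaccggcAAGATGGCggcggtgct
Ndufs4 (chr13:114388045-114388074, minus strand, position 36): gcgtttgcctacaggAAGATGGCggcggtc
Ndufb8 (chr19:44555393-44555422, minus strand, position 39): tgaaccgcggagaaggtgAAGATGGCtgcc

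Of these 8 genes, 2 (Ndufa3 and Ndufs4) lay within 5 kb of an Adnp peak, as did 10 of the 40 genes with a promoter.

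The palindromic word CGCATGCG, the centre of the site of the respiratory gene regulator NRF1, was present in 4 of the 40 promoters (10%), against 426 of 16457 (2.59%). Its shorter form GCATGC, which lies within it, was present in 5 (12.5%, against 8.31%). Both strands were searched, and negative positions count bases before the start.
Ndufaf4 (chr4:24897960-24897989, plus strand, position -112): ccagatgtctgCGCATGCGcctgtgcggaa
Ndufa11 (chr17:56717692-56717721, plus strand, position -59): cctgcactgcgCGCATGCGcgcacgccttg
Ndufa8 (chr2:36049329-36049358, minus strand, position -9): gtcgctggagaCGCATGCGcagatggtacc
Ndufaf5 (chr2:140170652-140170681, plus strand, position 18): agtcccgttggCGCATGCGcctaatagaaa

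None of these 4 genes had an Adnp peak within 5 kb. The ETS word CCGGAAG was present in 6 of 40 promoters (15%, against 12.3% of all) and GGGCGG in 20 of 40 (50%, against 47.3%). CGCCCTCT was present in the Ndufv1 promoter alone (2.5%, against 4.02%) and CGCCCCCT in those of Ndufaf4 and Ndufc1 (5%, against 8.39%), and none of these 3 genes had an Adnp peak within 5 kb. The promoters had a median of 59.3% G or C and 20.5 CG steps, beside 56.7% and 14.0 for all. Such matches describe letters only.

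Adnp peaks lay near some complex I genes at about the rate of other genes. Within 1 kb of an end a peak was found at 3 of 47 genes (6.38%, 95% Wilson interval 2.19% to 17.2%), where 5.6% of all protein-coding genes had one. Within 5 kb it was 13 of 47 (27.7%, 16.9% to 41.8%), against 20.1% of all. Within 20 kb it was 19 of 47 (40.4%, 27.6% to 54.7%), against 42.8%. Inside the gene it was 8 of 47 (17%, 8.89% to 30.1%), against 21.5%. Each interval held the share of all genes, so no window separated complex I genes from genes in general.

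**Figure D1:**
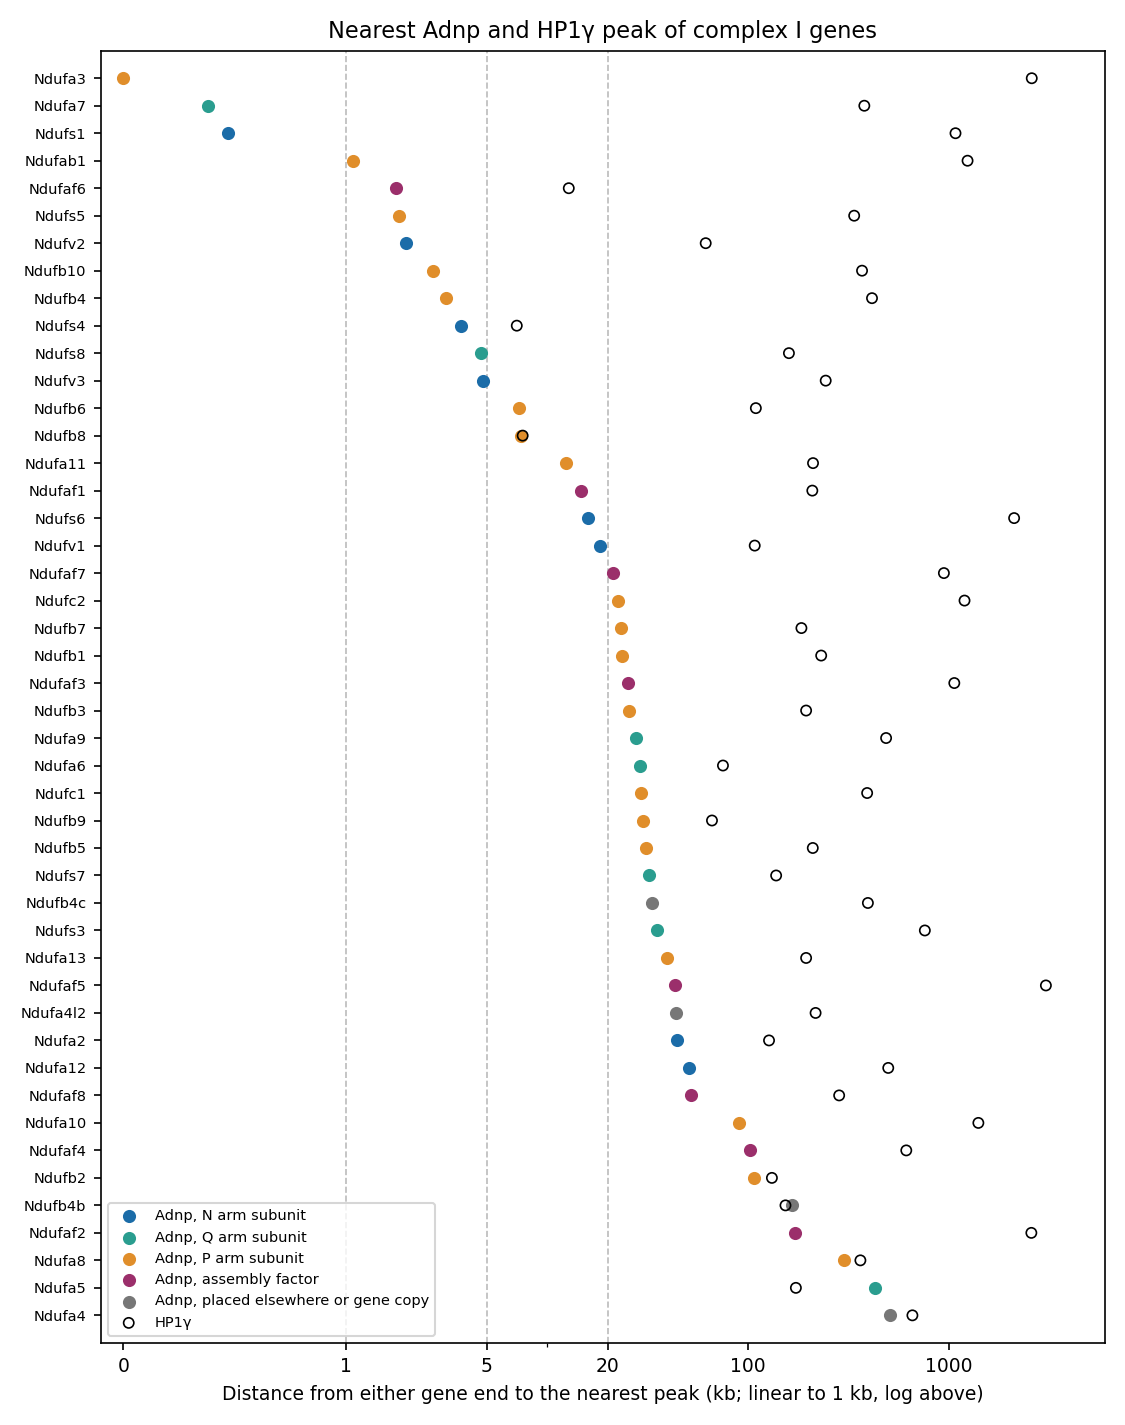
Distance in kb from either end of 46 complex I genes (rows) to the nearest Adnp peak (filled points, coloured by place in the complex) and the nearest HP1γ peak (open points). Dashed lines mark 1, 5 and 20 kb; 12 of the genes shown lie at or below 5 kb for Adnp, and none does for HP1γ.

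The strongest peak belonged to Ndufa3, which encodes a small accessory subunit of the membrane arm (chr7:3617347-3620165). The peak at its start had an authors' score of 280, rank 11 of 15026, and covered the lower end of the gene in this table. It lay within 1 kb of an end of Oscar, the gene of an osteoclast receptor, so it cannot be given to Ndufa3 alone. A second peak 9.23 kb upstream had a score of 15.6, below the list median of 21.2.

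Among the N arm genes, a peak within 5 kb was found at 4 of 8 (50%, 21.5% to 78.5%), an interval that lies just above the 20.1% of all protein-coding genes. Ndufs1, the largest core subunit and a carrier of iron-sulfur clusters, had 3 such peaks. They lay 0.471 kb beyond the lower end (score 24.4), 3.21 kb inside the upper end (14.0) and 3.68 kb beyond it (30.8). The last was also within 1 kb of Eef1b2, a translation elongation factor gene.

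Ndufv2, a core subunit with an iron-sulfur cluster, had a peak of 769 bp upstream of its start (chr17:66103543-66104311, 1.98 kb, score 50.9). Ndufv3, an accessory subunit, had a peak of 1084 bp inside the gene (chr17:31525473-31526556, 4.77 kb from its 3′ end). Its score of 82.0 was the highest of the complex I genes after Ndufa3. Ndufs4, an accessory subunit whose loss in mice gives a Leigh-like encephalopathy, had a peak of 1003 bp beyond its 3′ end (chr13:114283063-114284065, 3.73 kb, score 73.1). A narrower and lower peak lay deep inside Ndufs4, 23.4 kb from that end (score 11.3). The 3 wide peaks of Ndufv2, Ndufv3 and Ndufs4 exceeded the upper quartile of width in the list, 481 bp, and scored above its upper quartile of 33.6. This was not confined to the N arm. It also held for the Ndufa3 peak (568 bp, score 280) and for an Ndufaf6 peak (751 bp, score 43.4).

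Among the Q arm genes it was 3 of 8 (37.5%, 13.7% to 69.4%), an interval that includes the 20.1%. Ndufa7, an accessory subunit, had a peak inside the gene 0.378 kb from its 3′ end (chr17:33837479-33837938, score 58.3). Ndufs8, a core iron-sulfur subunit, had one 4.68 kb upstream of its start (score 29.3), inside the aldehyde dehydrogenase gene Aldh3b1. The Ndufa7 peak lay in the complex I gene itself and the Ndufs8 peak in its neighbour. Aldh3b1 and, further on, Sec31b are named because a peak overlapped them, a choice made after the values were seen.

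In the membrane arm it was 5 of 19 (26.3%, 11.8% to 48.8%, which also includes the 20.1%), Ndufa3 among them. Ndufab1, the mitochondrial acyl carrier protein, was counted in this arm alone. It had a peak 1.08 kb inside its start (chr7:122100383-122100768, score 30.8). Ndufb4, an accessory subunit, had one near its middle, 3.14 kb from the 3′ end (score 19.1). Ndufs5, also accessory, had a pair beyond its 3′ end, at 1.83 kb (score 30.4) and 4.76 kb (11.4). Ndufb10, another accessory subunit, had one at 2.72 kb beyond its 3′ end (score 28.8), which overlapped the ribosomal protein gene Rps2 and was within 1 kb of ends of Rps2 and Rnf151.

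Of the 7 core subunit genes, 4 had a peak within 5 kb (57.1%, 25% to 84.2%), Ndufs1, Ndufs8 and Ndufv2 among them, against 20.1% of all protein-coding genes, which lies below that interval. Of the 28 other subunit genes, left after taking out the 4 that are not complex I subunits, 8 had one (28.6%, 15.3% to 47.1%). The intervals of core and other subunits overlap, and the difference was not tested. Groups of 7 or 8 genes are small, and several groupings of the same genes were looked at.

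**Figure D2:**
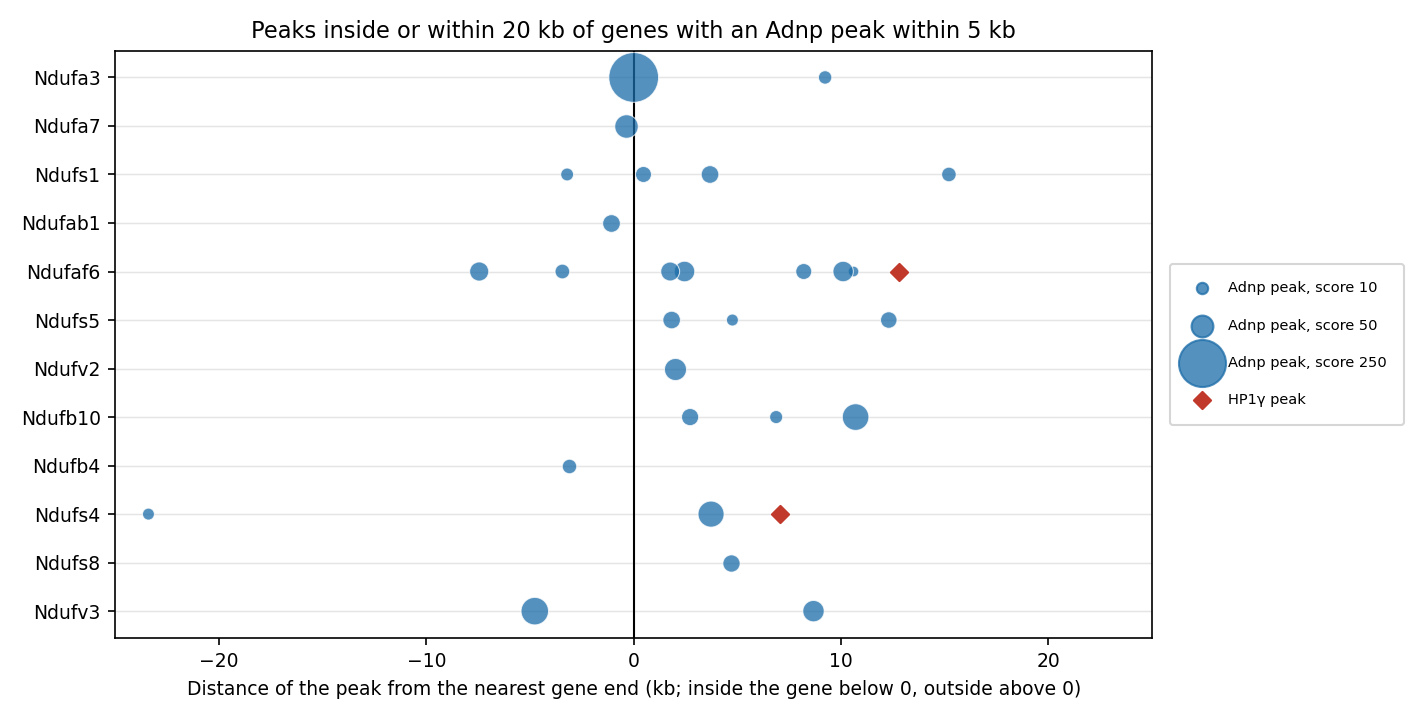
Each row is 1 of 12 complex I genes lying within 5 kb of an Adnp peak, and each point a peak inside the gene or within 20 kb, placed by its distance in kb from the nearest end (inside below 0, outside above 0). Circle area grows with the authors' Adnp score, and diamonds are HP1γ peaks; the Ndufa3 peak (score 280) sits on the gene end and Ndufaf6 has 7 Adnp peaks.

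Assembly factors had fewer genes near Adnp peaks than subunits in these counts. Within 5 kb it was 1 of 8 assembly factor genes (12.5%, 2.24% to 47.1%) against 12 of 39 subunit genes (30.8%, 18.6% to 46.4%). Within 1 kb it was 0 of 8 against 3 of 39 (7.69%). Within 20 kb it was 2 of 8 (25%) against 17 of 39 (43.6%), and inside the gene 1 of 8 (12.5%) against 7 of 39 (17.9%). All protein-coding genes had 5.6% within 1 kb, 20.1% within 5 kb, 42.8% within 20 kb and 21.5% inside. In each window the intervals of both groups include that share and overlap each other, and the difference between the groups was not tested. The 39 include Ndufa4, Ndufa4l2, Ndufb4b and Ndufb4c, which are not complex I subunits and had no Adnp peak in these windows. For HP1γ peaks within 20 kb the order was the reverse, 1 of 8 (12.5%) against 2 of 39 (5.13%), where all protein-coding genes had 6.14%.

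The assembly factor gene with a peak within 5 kb was Ndufaf6, whose product acts early in complex I assembly. It had more Adnp peaks than any other complex I gene, 7 inside or within 20 kb. Of these, 3 lay within 5 kb of the lower end, at 1.76 kb (score 36.1), 2.45 kb (43.4) and, inside the gene, 3.44 kb (19.8). A second peak inside the gene scored 36.9, and peaks 8.20 and 10.1 kb beyond the upper end scored 24.3 and 42.9. The seventh, 10.6 kb beyond the lower end, had the lowest score near any complex I gene, 7.97.

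Within 5 kb, 10 of the 13 genes had a single peak, Ndufs5 had 2, and Ndufs1 and Ndufaf6 had 3 each, 18 peaks in all. All 8 genes with a peak inside were among the 13. With the inner peaks of Ndufs4 and Ndufaf6 farther from the ends there were 20 peaks, of median width 395 bp, against 396 bp for the list. The median score of the 20 peaks was 30.6 (quartiles 19.6 and 45.2), against 21.2 (13.9 and 33.6) for all 15026 peaks. Scores of peaks near other protein-coding genes were not taken separately, so whether this is particular to complex I genes cannot be told. Of the 20, 14 were at or above the list median and 8 at or above its upper quartile. Over all 38 peaks inside or within 20 kb the median was 24.3, with 20 at or above the list median. None of the 20 overlapped an HP1γ peak. Over chromosomes 1 to 19, only 303 HP1γ peaks overlapped any of the 14903 Adnp peaks. Such overlap was thus rare in the whole list, and its absence among 20 peaks does not set them apart.

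The nearest peaks lay at both starts and 3′ ends, and nearest ends were not counted for other genes. Of the 13 genes, 10 had a strand in the promoter table. The nearest peak was at the start for 4 (Ndufa3, Ndufab1, Ndufs8 and Ndufv2) and at the 3′ end for 6 (Ndufa7, Ndufb4, Ndufb10, Ndufs4, Ndufs5 and Ndufv3). When distance was taken from the start alone, 5 of 40 genes (12.5%) had a peak within 5 kb. Other protein-coding genes of like length gave 15.0%, near that share (ratio 0.831, interval 0.363 to 1.74).

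A further 6 genes had their nearest Adnp peak between 5 and 20 kb. Just outside the window of 5 kb, after Ndufs8 at 4.68 kb and Ndufv3 at 4.77 kb inside it, came Ndufb6 at 7.24 kb, Ndufb8 at 7.42 kb, Ndufa11 at 12.4 kb and Ndufaf1 at 14.7 kb. Ndufs6, at 15.9 kb, and Ndufv1, at 18.4 kb, closed the group.

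Of the remaining 28 genes, 20 lay 20 to 60 kb from the nearest Adnp peak and 8 farther. The nearest was Ndufaf7 at 21.2 kb. With it were the subunit genes Ndufa2, Ndufa6, Ndufa9, Ndufa12, Ndufa13, Ndufb1, Ndufb3, Ndufb5, Ndufb7, Ndufb9, Ndufc1, Ndufc2, Ndufs3 and Ndufs7, the assembly factor genes Ndufaf3, Ndufaf5 and Ndufaf8, and Ndufa4l2 and Ndufb4c. Beyond 60 kb were Ndufa4, Ndufa5, Ndufa8, Ndufa10, Ndufb2, Ndufb4b, Ndufaf2 and Ndufaf4. Ndufa4 was farthest, at 512 kb. None of the 4 genes that are not complex I subunits had an Adnp peak within 20 kb.

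Gene length entered the comparison because short genes leave less room for a peak inside. Complex I genes had a median length of 7800 bp (471 to 106000 bp), against 17600 bp for all protein-coding genes. All other protein-coding genes within 20% of each member's length, between 104 and 2342 genes per member, were therefore taken as the reference. Inside genes, the reference share was 12.9%, and the complex I share of 17% was 1.32 times that (interval 0.692 to 2.34). Complex I genes were thus below all genes and above genes of like length by this count, with an interval that spans both. The ratios were 1.00 within 1 kb (0.344 to 2.70), 1.31 within 5 kb (0.800 to 1.98) and 0.916 within 20 kb (0.625 to 1.24), against reference shares of 6.37%, 21.1% and 44.1%.

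The ratio within 5 kb was below 1 when the transcription start alone was used, at 0.831 (0.363 to 1.74). It was 1.90 with the Adnp peaks at or above the list median score (11 of 47 genes, 23.4% against 12.3%), with an interval of 1.10 to 3.02 that leaves out 1. With peaks at or above the upper quartile it was 1.97 (0.921 to 3.88). For subunits the ratio within 5 kb was 1.45 (0.876 to 2.18) and for assembly factors 0.609 (0.109 to 2.30). Both of these intervals include 1.

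The median distance to the nearest Adnp peak was 25.3 kb for complex I genes (quartiles 4.72 and 43.6 kb), 26.6 kb for genes of like length and 30 kb for all protein-coding genes. Complex I genes were nearer than the median of their like-length genes in 29 of 47 cases. The median number of other protein-coding gene ends within 100 kb was 7 for complex I genes and 8 for all.

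**Figure D3:**
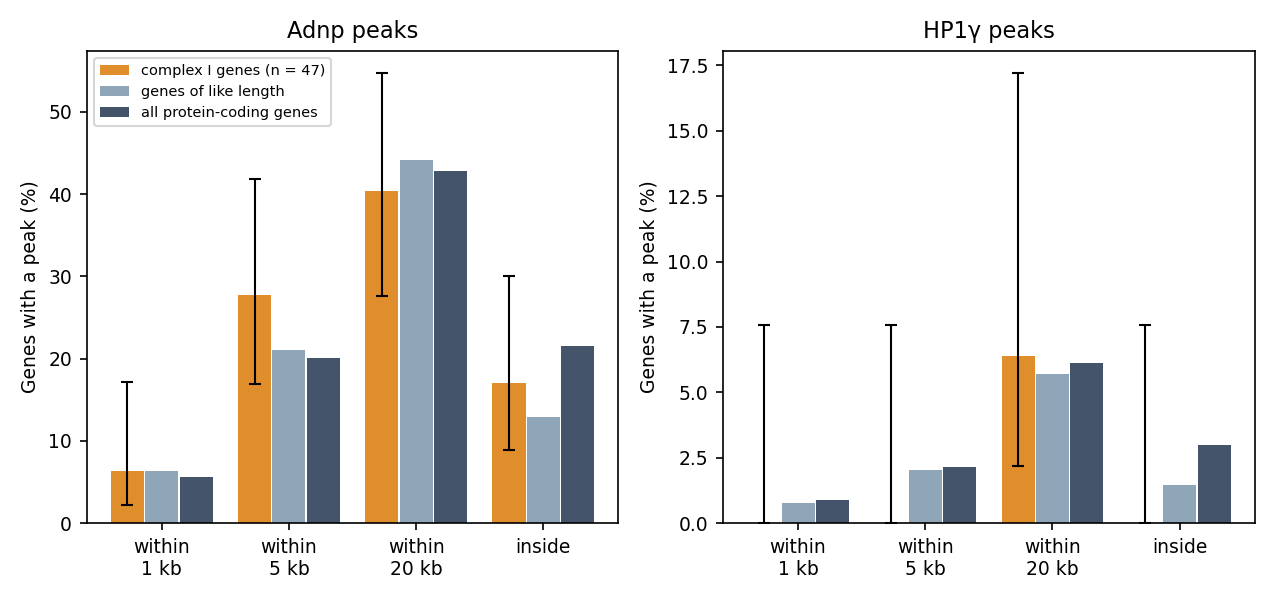
Share in percent of complex I genes (n = 47, bars with 95% Wilson intervals), of genes of like length and of all protein-coding genes with an Adnp peak (left) or HP1γ peak (right) within 1, 5 or 20 kb of an end or inside. All Adnp intervals span both reference bars, and complex I genes have no HP1γ bar except at 20 kb.

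No complex I gene had a listed HP1γ peak inside it or within 5 kb of an end. A count of 0 of 47 allows a share of up to 6.38% when 3 counts are taken as the most a 0 allows (the 95% Wilson bound is 7.56%), and 0.89% of all protein-coding genes had one within 1 kb, 2.13% within 5 kb and 2.98% inside. Genes of like length gave 0.765%, 2.05% and 1.46%, so fewer than 1 gene among 47 was to be found at those rates. The absence was therefore not distinguishable from the rate of other genes. Within 20 kb it was 3 of 47 (6.38%, 2.19% to 17.2%), against 6.14% of all and 5.72% of genes of like length. The nearest HP1γ peak was over 50 kb away for the other 44 genes, and over 1 Mb for 9. Such distances were usual for this short list. The median distance was 244 kb for complex I genes, 364 kb for genes of like length and 389 kb for all protein-coding genes. Complex I genes were nearer than the median of their like-length genes in 27 of 47 cases.

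The 3 genes were Ndufs4, Ndufb8 and Ndufaf6, and all had Adnp peaks within 20 kb too. The Ndufs4 peak, chr13:114280393-114280732, lay 7.06 kb beyond the 3′ end and 2331 bp from the wide Adnp peak of that gene. The Ndufb8 peak, chr19:44540781-44541015, lay 7.56 kb beyond the 3′ end of Ndufb8, an accessory subunit of the membrane arm. It overlapped the Adnp peak chr19:44540789-44541149 (score 17.9), and both lay inside Sec31b, a gene of the vesicle coat. The Ndufaf6 peak, chr4:11035871-11036167, lay 12.8 kb beyond the lower end and 1711 bp from the Adnp peak of score 7.97. All 3 thus had an Adnp peak within 2.5 kb, as did 477 of the 1994 HP1γ peaks of chromosomes 1 to 19 (23.9%). The distance of 2.5 kb was chosen after these values were seen.

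Genes of the other oxidative phosphorylation complexes together had an Adnp peak within 5 kb more often than those of complex I in these counts. A peak lay within 5 kb at 3 of 8 genes of complex II and its assembly factors (37.5%, 13.7% to 69.4%) and at 4 of 9 of complex III (44.4%, 18.9% to 73.3%). It lay there at 8 of 16 of complex IV (50%, 28% to 72.0%). For complex V it was 8 of 18 (44.4%, 24.6% to 66.3%), the inhibitory factor gene Atpif1 being among the 8 and the 18. Together this was 23 of 51 genes (45.1%, 32.3% to 58.6%), where complex I had 27.7% and all protein-coding genes 20.1%. Genes of their lengths gave 19.2% (ratio 2.35). The other windows were not all alike. Within 1 kb the 51 genes had 13.7%, against 6.38% for complex I and 5.97% for genes of their lengths. Within 20 kb it was 60.8%, against 40.4% and 40.6%, and inside it was 15.7%, against 17% and 9.43%. All protein-coding genes had 5.6%, 42.8% and 21.5% in these windows. Complex II alone had 0 of 8 within 1 kb and 37.5% within 20 kb, where genes of its lengths gave 5.77% and 43.2%. Its median distance was 39.2 kb, against 25.3 kb for complex I. The difference from complex I was not tested, and these lists are small.

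The highest score of their peaks within 5 kb was below the highest of complex I, 280 at Ndufa3. Complex I peaks inside or within 5 kb also ran down to 11.3, and both sets were not compared beyond top scores. The top scores of the other complexes were 43.1 at Atp5g1 and 36.5 at Atp5l, which encode parts of the ATP synthase. At Uqcr11, of complex III, it was 30.4. In complex IV they ran from 11.8 at Cox6b1 to 29.8 at Cox6a1, and the Cox5b peak (25.9) covered a gene end. Sdhb and Uqcrc1 also had a peak within 5 kb, with scores of 19.4 and 8.26. The genes of these complexes were named after their values were seen. Of 12 complex I assembly factor genes without the Ndufaf symbol, Ecsit alone had one (8.33%, 1.49% to 35.4%, score 8.46). Sdhaf3, a complex II assembly factor gene, had an HP1γ peak at its end, the only such gene within 5 kb among the 51.

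**Figure D4:**
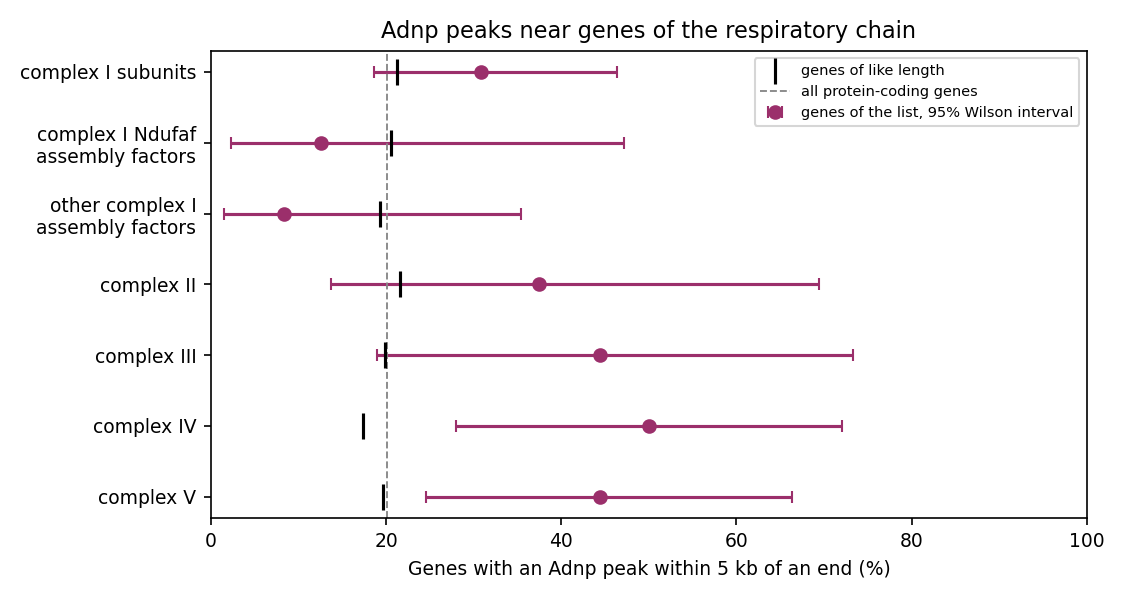
Share in percent of genes that lie within 5 kb of an Adnp peak, for complex I subunits, both sets of complex I assembly factors and complexes II to V (points with 95% Wilson intervals), with genes of like length as vertical marks and all protein-coding genes (20.1%) as the dashed line. The intervals of complexes IV and V lie above both references, and those of the complex I lists include them.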

How the data were processed

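Positions are on mm10 (GRCm38). Software named for the series, per the submitters' processing notes, is MACS2, edgeR, STAR 2.5.0a, Bowtie 1.0.0 and bcl2fastq 1.17. Neither the role of each tool nor any setting of the peak caller is given in the sources used here. The authors deposited pooled peak lists with no header line. Column 5 of the Adnp list is a score per peak by the authors, of unstated kind, and served to describe, rank and filter peaks of that list alone. It is 0 throughout the deposited HP1γ list. Read depth is unknown, so precision follows from the number of genes, and Wilson intervals at 95% cover counting error only.

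Genes and their ends came from the RefSeq table of GRCm38.p6 (protein-coding, chromosomes 1 to 19, start at 3 Mb or higher). Transcription starts and promoters came from the RefSeq promoter table of the same build, with 1 promoter used per gene. A peak counted near a gene when any part of it lay within 1, 5 or 20 kb of either end, and inside when it overlapped the gene by 1 bp. For like length, the share with a peak among all other protein-coding genes within 20% of a member's length was averaged over members. No test was made, since the lists are pooled and the members are a chosen gene set. The members and gene lists were chosen with earlier results of these data known. Genes with a peak inside or within 5 kb were named with their peaks; 1 gene enters the counts but is not reported here. Of those at 5 to 20 kb, 5 were named by distance, with the farthest as the end of the range. Alternatives were peak centres, higher-scoring peaks, transcription starts, overlap of 50% of the peak, other length limits, added gene density, and members that are not complex I subunits left out. Distances were checked on simulated positions. Python 3.11.15, NumPy 2.4.6, pandas 2.3.3, SciPy 1.17.1 and matplotlib 3.10.9 were used.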

Additional observations from a re-analysis of the deposited data

How the results depend on the processing

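No paired analysis was possible because each list is pooled over replicates, and for the same reason no replicate could be left out. Of the higher-scoring Adnp peaks, those at or above the list median left 12 complex I genes within 20 kb (25.5%, against 29.6% of genes of like length). They left 5 with a peak inside (10.6%, against 7.56%). Those at or above its upper quartile left 6 within 5 kb (5 of them subunit genes), 8 within 20 kb and 4 inside. Fewer peaks enter these counts by construction. With the transcription start alone, 40 genes could be used. An Adnp peak lay within 1 kb of 1 of them (2.5%, against 4.06% of genes of like length). Within 5 kb it was 5 (12.5%, against 15.0%), of which 5 were subunit genes and 0 assembly factor genes. An HP1γ peak lay within 20 kb of 1 of the 40. The other counts stayed within 1.5 times of those reported, and all Adnp ratios to like length stayed within the intervals of the reported ratios. Of all settings and windows, only the ratio within 5 kb with peaks at or above the list median score had an interval of its own that leaves out 1 (1.10 to 3.02). With gene density added, 46 of 47 members had genes to compare with. The scores rank peaks within 1 list and give no depth.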

Other observations

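Chromosome 17 held 6 complex I genes, and 4 of them (Ndufa7, Ndufb10, Ndufv2 and Ndufv3) had an Adnp peak within 5 kb, where 20.6% of the 1048 protein-coding genes of that chromosome had one. Of the other 41 complex I genes it was 9 (22.0%, 95% Wilson interval 12.0% to 36.7%). The chromosome was singled out after its values were seen, and no test was made. Their transcription starts are at 24724423 for Ndufb10, 31520115 for Ndufv3, 33824572 for Ndufa7 and 66101559 for Ndufv2, and no peak is shared between them. Ndufa11 on the same chromosome had its nearest Adnp peak at 12.4 kb and Ndufaf7 at 21.2 kb.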
